A study of Mus musculus with 10 samples.

Results

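The genes described here are 7 transcripts by which the resident macrophages of the mouse liver, the Kupffer cells, are commonly recognised: Clec4f, Clec1b, Timd4, Cd163, Cd5l, Vsig4 and Folr2. They were chosen by gene symbol, and each matched a single entry among the 25233 entries of the expression table that carry a symbol. Their levels were compared across 10 libraries of hepatic stellate cells (HSC), the vitamin A-storing cells of the liver, with 5 libraries of hypertrophied HSC (hypHSC) and 5 of quiescent HSC (qHSC). All mice were C57BL/6J by their labels, and the methods describe males. The hypHSC mice were fed CDAHFD, which lacks choline, is rich in fat and leads to fibrotic steatohepatitis. Libraries hypHSC 1 and 2 were made from mice aged 19 weeks that had been on this diet for 13 weeks, and hypHSC 3, 4 and 5 from mice aged 18 weeks with 12 weeks on it. The qHSC came from mice on a standard diet, aged 36 weeks for qHSC 1, 2 and 5 and 34 weeks for qHSC 3 and 4. Both cell types were isolated by enzymatic digestion of the liver, a density gradient and cell sorting on their own retinoid fluorescence, green for hypHSC and blue for qHSC, with stronger digestion for the fibrotic livers. Preparations were chosen for sequencing by their RNA quality, and n counts preparations, since the mouse behind each library is not given in the sources used here. Antibiotics were added to buffers for the CDAHFD livers, since the authors saw bacteria in those preparations and never in standard-diet ones. Diet, age, bacteria, digestion, antibiotics and sorting gate changed together between the groups, so their effects cannot be told apart. Sorting used no macrophage marker, either to select such cells or to exclude them. In bulk RNA fewer cells of a type and less RNA per cell cannot be told apart.

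Kupffer cells line the liver sinusoids, where they clear microbes, dying cells and aged erythrocytes from the blood. They are seeded before birth and maintain themselves, and their identity is supported by signals from neighbouring stellate, endothelial and parenchymal cells. In steatohepatitis, monocytes enter the liver and give rise to macrophages that acquire Kupffer cell genes stepwise, with Clec4f gained earlier than Timd4, while a lipid-associated state marked by Trem2, Gpnmb and Spp1 also appears.

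Depth was similar in the groups, with 30534719 to 43283589 reads on genes with a symbol in hypHSC and 35640104 to 47317028 in qHSC, so that 3 reads, taken as the floor of detection, equalled 2.25 to 4.54 normalized counts. Reads on mitochondrial entries made up 2.21% to 12.8% of the hypHSC libraries and 1.25% to 1.61% of the qHSC libraries. Marker lists were summed in each library. The 12 quiescent stellate genes, led by Dcn and Ecm1, summed to 1366824 to 2260437 normalized counts in qHSC and to 32101 to 61329 in the libraries labelled hypHSC. The 20 core macrophage genes, which include Lyz2, Ctss and Cd68, summed to 1877447 to 2476804 in hypHSC and to 30224 to 285465 in qHSC. In the libraries labelled as hypertrophied stellate cells the macrophage sum was therefore above the stellate sum, and in those labelled quiescent the order was the opposite. Among qHSC the core macrophage sum was highest in qHSC 4, at 285465, and next in qHSC 1, at 130342. Of these 2 libraries, qHSC 1 came from a mouse of 36 weeks and qHSC 4 from a mouse of 34 weeks. Both also stood apart for every one of the 7 genes, so results are given with and without them. The 2 libraries were picked by these levels after the data had been seen. Results without them are therefore a description, and their p-values are no separate support for a difference. The part of macrophages among the sorted cells in the results was not tested.

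**Figure D1:**
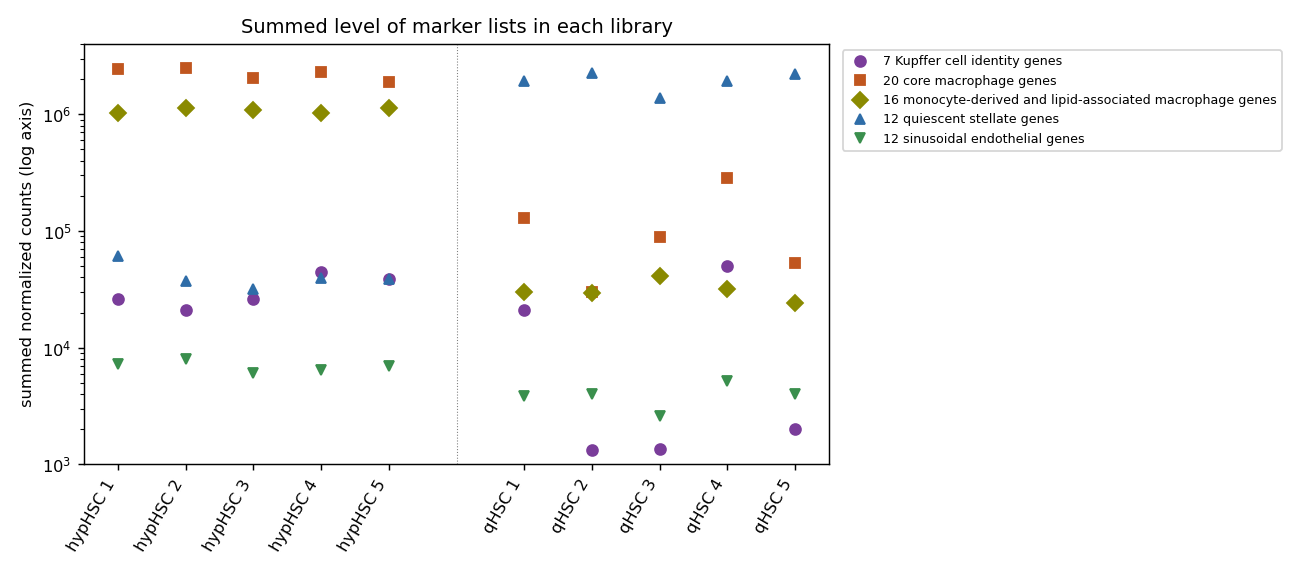
Summed normalized counts (log axis) of 5 marker lists in each of the 10 libraries, 1 point per list and library. The core macrophage sum lies above the quiescent stellate sum in the 5 hypHSC libraries and below it in the 5 qHSC libraries, and the Kupffer identity sum in qHSC 1 and 4 (20865 and 50457) is at the height of the hypHSC libraries (20831 to 44468).

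The 7 genes divided into a group of 5 with high levels in every hypHSC library (Clec4f, Clec1b, Cd5l, Vsig4 and Folr2) and a pair with low levels in every hypHSC library (Timd4 and Cd163). In qHSC all 7 were low in qHSC 2, 3 and 5 and high in qHSC 1 and 4. Of the 7, 4 were called higher in hypHSC by limma at a log2 fold change of at least 1 and a Benjamini-Hochberg adjusted p of at most 0.05 (Clec1b, Cd5l, Folr2 and Vsig4), where 17.8% of the 14630 genes tested were called higher. None of the 7 was called lower by limma, where 21.7% of all genes tested were. At an unadjusted limma p under 0.05 there were 2 members lower, Timd4 and Cd163. Count models on the recovered reads gave other counts, with 1 member called higher by DESeq2 (20.6% of all genes tested), 0 called higher by edgeR (19.0%), also at an unadjusted p under 0.05, and 2 called lower by each (19.5% and 17.4%). The median log2 fold change was 2.86 over the 7 genes and -0.20 over all genes tested. No member had groups that did not overlap, whereas this held for 39.5% of the genes tested. For the 5 genes that were high in hypHSC, qHSC 1 or qHSC 4 reached into or past the range of hypHSC. Within that range lay qHSC 2 and 3 for Timd4 and qHSC 3 for Cd163.

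**Figure D2:**
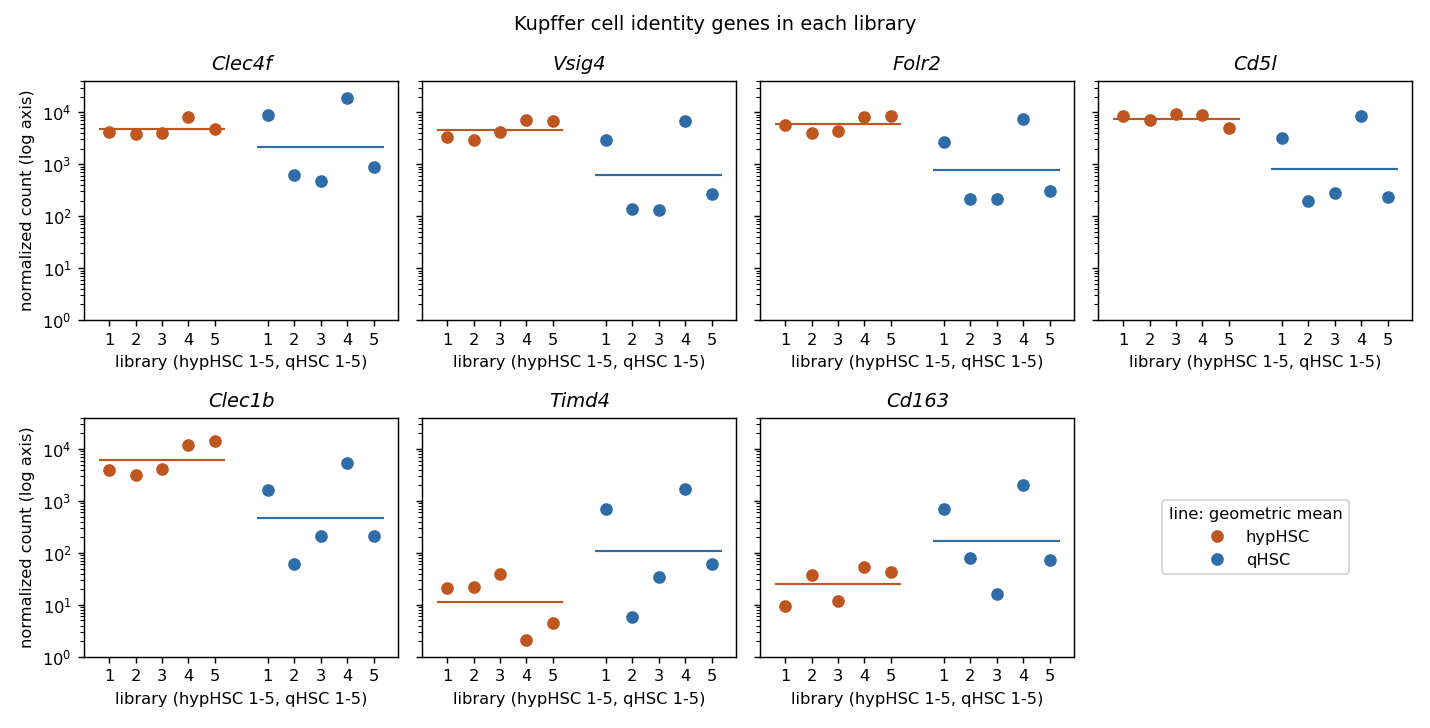
Normalized counts (log axis) of the 7 Kupffer cell identity genes in each library, with hypHSC 1 to 5 on the left and qHSC 1 to 5 on the right of each panel and lines at the group geometric means. For each gene, qHSC 1 and 4 lie above qHSC 2, 3 and 5, and Timd4 and Cd163 differ from the other 5 genes by their low level in hypHSC.

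Clec4f and Clec1b encode C-type lectins. Clec4f, a glycan-binding receptor that in the mouse is restricted to Kupffer cells, lies on chromosome 6 from 83621524 to 83633099 (GRCm39). Its normalized counts in hypHSC 1 to 5 were 4169, 3764, 4011, 8014 and 4690. In qHSC 1 to 5 they were 9029, 632, 466, 18766 and 870. The hypHSC libraries spread over 2.13-fold, with hypHSC 4 well above the others. The qHSC libraries spread over 40.3-fold, with qHSC 1 and 4 above every hypHSC library and the other 3 below every one. The log2 fold change of hypHSC over qHSC, on the log2(normalized count + 1) scale used throughout, was 1.15 (limma SE 0.94, adjusted p = 0.336). The exact two-sided permutation test gave p = 0.310, where the smallest p that 5 libraries against 5 allow is 0.00794. Without qHSC 1 and 4 the limma log2 fold change was 2.89 (SE 0.31, adjusted p = 0.000102). The direction of Clec4f depended on the test, since count models fitted to the recovered reads gave -0.22 with DESeq2 and -0.24 with edgeR. Arithmetic means were 4930 ± 1757 in hypHSC and 5953 ± 8030 in qHSC (SD, n = 5 each).

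Clec1b encodes a receptor for podoplanin that is also known from platelets, and lies on chromosome 6 from 129374260 to 129382376. Its normalized counts were 3932, 3155, 4071, 11922 and 14166 in hypHSC 1 to 5. They were 1629, 60.5, 213, 5465 and 212 in qHSC 1 to 5. Only qHSC 4 reached into the hypHSC range, and hypHSC 4 and 5 stood above the other hypHSC libraries. Clec1b rose by a log2 fold change of 3.68 (limma SE 1.06, adjusted p = 0.014), the largest rise of the 7 by limma. The exact permutation p was 0.0317. With qHSC 1 and 4 left out, the log2 fold change was 5.44 (limma SE 0.62, adjusted p = 0.000155). The 10 platelet genes summed to 4540 to 8160 normalized counts in hypHSC and 3698 to 6274 in qHSC, most of it Pf4. Single platelet genes went opposite ways, with Itga2b at 721 to 1671 normalized counts in qHSC and at most 41.8 in hypHSC (called lower by limma), and Ppbp and F2rl2 called higher. Gp9, Gp6 and Treml1 were at 3 reads or fewer in every library of at least 1 group. Of the exon bases of Clec1b, 24.2% were shared with Clec1a and Clec9a, and reads were counted without regard to strand. Clec1a was at 397 to 647 normalized counts over the 10 libraries and Clec9a at 32.4 to 588, so that in qHSC 2, 3 and 5 Clec1b was below Clec1a.

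Cd5l, Cd163 and Timd4 act in scavenging. Cd5l encodes a secreted protein of the scavenger receptor cysteine-rich family and lies on chromosome 3 from 87265186 to 87278381. Its normalized counts in hypHSC 1 to 5 were 8632, 6966, 9333, 8991 and 4984. In qHSC 1 to 5 they were 3213, 194, 281, 8342 and 236. Cd5l was the least variable member among hypHSC, with a coefficient of variation of 23.2%, and qHSC 4 alone reached the hypHSC range. It rose by a log2 fold change of 3.23 (limma SE 0.96, adjusted p = 0.0165), with an exact permutation p of 0.0238. Without qHSC 1 and 4 this was 5.01 (limma SE 0.26, adjusted p = 1.68e-06).

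Cd163, the receptor that takes up haemoglobin bound to haptoglobin, lies on chromosome 6 from 124281610 to 124307486. Its normalized counts in hypHSC 1 to 5 were 9.43, 38.3, 11.6, 54.5 and 42.4. In qHSC 1 to 5 they were 706, 80.9, 16.5, 1992 and 73.4. All hypHSC libraries lay below all qHSC libraries except qHSC 3. The log2 fold change was -2.71 (limma SE 1.15, adjusted p = 0.0733), with an exact permutation p of 0.0794. With qHSC 1 and 4 left out, it was -0.85 (limma SE 0.83, adjusted p = 0.453), so the size of the difference rested on these 2 libraries.

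Timd4, the phosphatidylserine receptor for dying cells that marks long-resident Kupffer cells, lies on chromosome 11 from 46701625 to 46735160. Its normalized counts in hypHSC 1 to 5 were 21.6, 21.7, 39.1, 2.10 and 4.54. In qHSC 1 to 5 they were 701, 5.96, 34.6, 1720 and 61.4. In hypHSC 4 and 5 Timd4 was at the floor, with 2 and 3 reads, which made it the only member that was not above 3 reads in every library. It had the widest range, 289-fold among qHSC. The log2 fold change was -3.14 (limma SE 1.40, adjusted p = 0.0852), with an exact permutation p of 0.0952. Without qHSC 1 and 4 it was -0.95 (limma SE 1.08, adjusted p = 0.524), and the groups overlapped.

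Vsig4 and Folr2 encode surface receptors for complement fragments and for folate. Vsig4 lies on chromosome X from 95290807 to 95337046. Its normalized counts in hypHSC 1 to 5 were 3386, 2936, 4180, 7220 and 6764. In qHSC 1 to 5 they were 2957, 141, 131, 6669 and 273. Both qHSC 1 and qHSC 4 lay inside the hypHSC range and the other qHSC libraries far below it. Vsig4 rose by a log2 fold change of 2.86 (limma SE 1.02, adjusted p = 0.0382), with an exact permutation p of 0.0635. This call was lost with DESeq2 (1.33), edgeR (1.31), equal library totals (2.50) and the hypHSC of 12 diet weeks only (3.22), and without any 1 of 7 libraries, at 2.29 to 2.97. With qHSC 1 and 4 left out, the log2 fold change was 4.73 (limma SE 0.38, adjusted p = 1.95e-05).

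Folr2 lies on chromosome 7 from 101489195 to 101506407. Its normalized counts in hypHSC 1 to 5 were 5824, 3949, 4357, 8265 and 8461. In qHSC 1 to 5 they were 2629, 212, 211, 7503 and 300. Only qHSC 4 reached the hypHSC range. Folr2 rose by a log2 fold change of 2.93 (limma SE 0.93, adjusted p = 0.0218), with an exact permutation p of 0.0397. Without qHSC 1 and 4 it was 4.62 (limma SE 0.31, adjusted p = 6.88e-06). GENCODE places a second gene model, Gm10602, over 61.2% of the Folr2 exon bases, so its reads are uncertain to that extent.

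Levels in qHSC 1 and 4 moved together across the 7 genes. In qHSC 1 each gene was 7.64-fold to 11.4-fold above the highest of qHSC 2, 3 and 5, and in qHSC 4 it was 21.6-fold to 29.7-fold above it. Without these 2 libraries, 5 of the 7 genes were called higher by limma (16.3% of all genes tested) and 0 lower (17.0% of all genes tested). At an unadjusted p under 0.05, limma likewise gave 0 lower, and the exact permutation test gave p = 0.429 for Timd4 and p = 0.357 for Cd163. The same 5 genes, Clec4f, Clec1b, Cd5l, Vsig4 and Folr2, then had groups that did not overlap, as did 44.5% of the genes tested. Each of the 5 gave an exact permutation p of 0.0357, the smallest that the 56 arrangements of 5 libraries against 3 allow. Because the 2 libraries were left out for their high levels of these same genes, these p-values cannot be read as support for a rise. In both count models, fitted with all 10 libraries, the 2 called lower were Timd4 and Cd163, and the member called higher by DESeq2 was Clec1b.

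**Figure D3:**
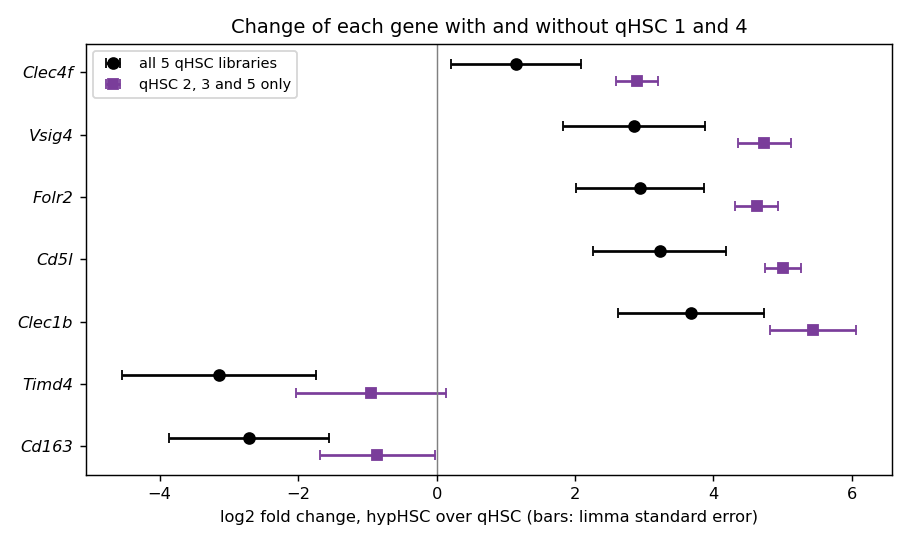
Log2 fold change of each gene, hypHSC over qHSC, with all 5 qHSC libraries (circles) and with qHSC 2, 3 and 5 alone (squares), where bars are limma standard errors. Leaving out qHSC 1 and 4 moves every gene to the right, Clec4f from 1.15 to 2.89 and Timd4 from -3.14 to -0.95.

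The proportions of these genes to each other within a library do not depend on how the libraries were scaled, and are described here with no test. Per 100 reads of Clec4f there were 7.77, 0.943, 7.43, 9.17 and 7.06 reads of Timd4 in qHSC 1 to 5. In hypHSC 1 to 5 there were 0.517, 0.578, 0.974, 0.0262 and 0.0967. The hypHSC ratios lay below those of all qHSC libraries except qHSC 2, where 7 reads of Timd4 were counted. Cd163 stood at 7.82, 12.8, 3.55, 10.6 and 8.44 reads per 100 reads of Clec4f in qHSC 1 to 5. In hypHSC 1 to 5 it stood at 0.226, 1.02, 0.290, 0.681 and 0.903, with no overlap between the groups. Among the libraries where the 7 genes were rare, qHSC 5 had proportions near those of qHSC 1 and 4, while qHSC 2 was lower for Timd4 and qHSC 3 lower for Cd163.

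The other 4 genes were higher relative to Clec4f in hypHSC, and their groups did not overlap. With Cd163 this made 5 of the 6 genes, where 9.24% of all genes tested did not overlap relative to Clec4f. Clec4f itself spanned 466 to 18766 normalized counts in qHSC, on both sides of its hypHSC range. The members followed it there (Pearson r of log2 values among qHSC 0.938 to 0.998), so the share over all genes is no matched contrast for them. Vsig4 had 78.0 to 144 reads per 100 reads of Clec4f in hypHSC and 22.2 to 35.5 in qHSC. Folr2 had 103 to 180 in hypHSC and 29.1 to 45.3 in qHSC. Cd5l had 106 to 233 in hypHSC and 27.1 to 60.3 in qHSC. Clec1b had 83.8 to 302 in hypHSC and 9.57 to 45.8 in qHSC, with the highest values in hypHSC 4 and 5. Clec4f was thus the most abundant of the 7 by reads in every qHSC library, whereas in hypHSC at least 1 other member exceeded it in each library.

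**Figure D4:**
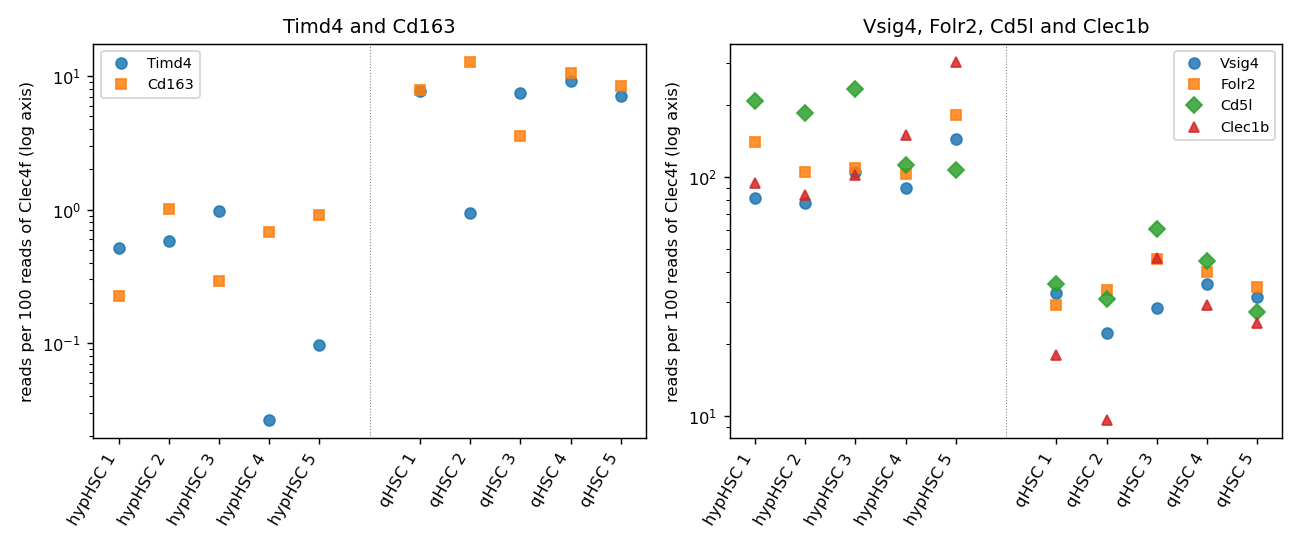
Reads of each gene per 100 reads of Clec4f (log axis) in the same library, with Timd4 and Cd163 on the left and Vsig4, Folr2, Cd5l and Clec1b on the right. Timd4 in qHSC 2, at 0.943, is the only point at which a gene's 2 groups overlap.

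Set against the core macrophage genes, the means of all 7 genes were lower in hypHSC. The mean log2 level of the 20 core macrophage genes was subtracted from the log2 level of each gene in the same library. This difference for Clec4f was -2.89 ± 0.65 in hypHSC and 0.71 ± 0.99 in qHSC (SD, n = 5 each). For Timd4 it was -11.41 ± 1.37 in hypHSC and -3.52 ± 1.72 in qHSC. For Cd163 it was -10.38 ± 1.33 in hypHSC and -2.92 ± 1.53 in qHSC. These groups did not overlap, nor did those of Cd5l, at -2.20 ± 0.26 against -0.68 ± 0.93. This made 4 of 7 members, where the groups of 81.6% of all genes tested did not overlap on this measure. The differences of Vsig4, Folr2 and Clec1b overlapped between the groups, with hypHSC minus qHSC at -1.89 for Vsig4, -1.82 for Folr2 and -1.08 for Clec1b on the log2 scale. Against a single pan-macrophage gene, Adgre1, there were 49.5 to 421 reads of Clec4f per 100 reads of Adgre1 in hypHSC and 688 to 1433 in qHSC. Timd4 and Cd163 were also lower per read of Adgre1 in hypHSC without overlap, while Vsig4, Cd5l, Folr2 and Clec1b overlapped. Adgre1 itself was called higher in hypHSC, at a log2 fold change of 4.45 (limma SE 0.98, adjusted p = 0.00319). The share of all genes without overlap per read of Adgre1 was not counted, so the separation on this measure is not read as particular to the members. For Clec1b the mean per 100 reads of Adgre1 was higher in hypHSC, at 332 ± 531 against 257 ± 115 (SD, n = 5 each).

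**Figure D5:**
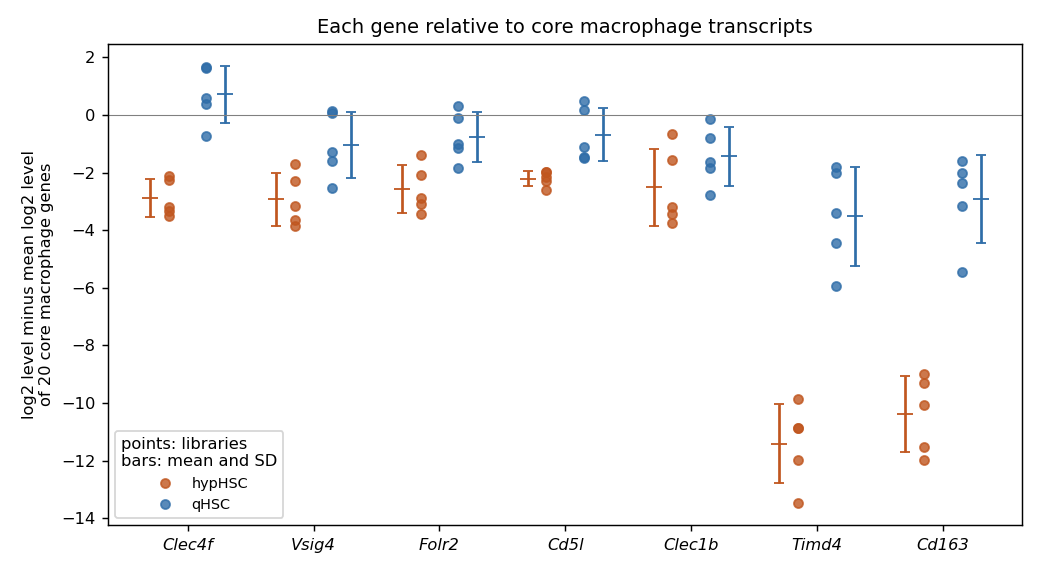
Log2 level of each gene minus the mean log2 level of 20 core macrophage genes in the same library, with 1 point per library and bars for the mean and SD of each group. The hypHSC points lie below the qHSC points without overlap for Clec4f, Cd5l, Timd4 and Cd163, and Timd4 and Cd163 lie lowest, at means of -11.41 and -10.38 in hypHSC.

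Compared per length of transcript, as FPKM (reads scaled by exon length and by the total of the library), Cd5l, Folr2 and Vsig4 led in hypHSC, at 92.5 ± 28.0, 90.5 ± 23.3 and 77.1 ± 25.5 FPKM (SD, n = 5). These 3 levels differed by less than their SD. Clec1b at 33.1 ± 20.1 FPKM and Clec4f at 31.5 ± 9.65 FPKM followed, again closer together than their spread. Cd163 and Timd4 were far below, at 0.130 ± 0.0766 and 0.115 ± 0.106 FPKM. In qHSC the spread exceeded the mean of every member, so the order of the mean levels was not resolved, from Clec4f at 49.5 ± 66.9 FPKM to Cd163 at 3.18 ± 4.67 FPKM. Among the 23179 genes with an exon length, Cd5l ranked 417 by its mean FPKM in hypHSC and 1020 in qHSC. Timd4 ranked 13549 in hypHSC and 4796 in qHSC. The FPKM of Clec1b is low by construction if its longer annotated exons were not transcribed, since GENCODE gives it 5129 exon bases over a wider span than the expression table.

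The starts of these genes were inspected for short motifs of factor families known from macrophages. RefSeq promoters of 300 bases (250 before the start and 50 after it, GRCm38.p6) were found for all 7. The letters TGCTGA, the core of MAF-type sites, occurred on either strand in 5 of the 7, against 21.7% of the 27025 genes with such a promoter. A gene was counted if any of its promoters held the letters, and Folr2 has 2. AGGTCA, bound by nuclear receptors, occurred in 2 of the 7 (18.1% of all genes), GAGGAAG, of the ETS type, in 1 (15.4%) and CAGGTG, an E-box, in 1 (22.6%). The 150 bases before the start are shown for Timd4 and Cd5l, which hold TGCTGA more than once, and for Clec4f, the most Kupffer-restricted member, each 5′ to 3′ on the gene's own strand with matches on either strand in capitals.
Timd4, chr11:46810649-46810798, plus strand: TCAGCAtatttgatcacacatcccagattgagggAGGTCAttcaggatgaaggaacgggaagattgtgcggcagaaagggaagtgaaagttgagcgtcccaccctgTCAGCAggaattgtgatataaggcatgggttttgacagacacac
Cd5l, chr3:87357731-87357880, plus strand: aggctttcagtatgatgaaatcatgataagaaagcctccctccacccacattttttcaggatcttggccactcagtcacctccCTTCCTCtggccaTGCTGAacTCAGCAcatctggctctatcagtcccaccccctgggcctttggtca
Clec4f, chr6:83656117-83656266, minus strand: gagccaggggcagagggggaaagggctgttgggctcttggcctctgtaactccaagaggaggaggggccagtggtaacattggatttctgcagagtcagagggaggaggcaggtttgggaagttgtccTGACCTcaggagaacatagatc
In Timd4 the first and last capitals mark TGCTGA on the opposite strand (read TCAGCA), and those between them mark AGGTCA. In Cd5l they mark GAGGAAG on the opposite strand and TGCTGA once on each strand. In Clec4f they mark AGGTCA on the opposite strand, and its TGCTGA lies 199 bases before the start, outside the stretch. Timd4, which was low in hypHSC, and Cd5l, which was high, both hold TGCTGA, while Cd163 and Clec1b hold none of the 4 motifs in this window. A match of letters is a description of the sequence and was not tied to binding by any measurement here.

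Beyond the 7 genes, 20 further genes reported from Kupffer cells were examined. Of these 20, 6 were called higher in hypHSC and 4 lower by limma, with a median log2 fold change of 1.07, beside 17.8% higher, 21.7% lower and a median of -0.20 over all genes tested. With qHSC 1 and 4 left out, 11 were called higher and 4 lower, with a median of 1.78. The largest rises were Fabp7, a fatty acid-binding protein (log2 fold change 6.01, limma SE 0.85, adjusted p = 0.000169), Pilra, an inhibitory receptor (4.70, SE 0.88, adjusted p = 0.0011), and Hmox1, the haem-degrading enzyme (4.51, SE 0.48, adjusted p = 2.16e-05). Fabp7 ranged from 12330 to 38763 normalized counts in hypHSC and from 81.9 to 2719 in qHSC. The largest falls were Fcna, a ficolin of the lectin complement pathway (-6.71, SE 0.25, adjusted p = 3.06e-08), Slc16a9 (-4.09, SE 0.58, adjusted p = 0.000166) and C6, a complement component (-2.91, SE 0.23, adjusted p = 2.5e-06). Fcna and Slc16a9 did not follow the members within qHSC, and Fcna was high in all 5 qHSC libraries, as the quiescent stellate genes were. The authors list Fcna among specific HSC marker genes that they found expressed in qHSC and lower in hypHSC. The part of stellate cells in the level of Fcna was not tested. Fcna lay between 167502 and 290236 normalized counts in qHSC, and its level in qHSC 2, where the 7 genes were low, was 251353. Slc40a1, the iron exporter and among the most abundant of this list, fell by 2.08 (limma SE 0.41, adjusted p = 0.00162). Among qHSC, C6 ranged from 3512 to 8856 normalized counts and Slc40a1 from 5942 to 14291, far narrower ranges than those of the 7 genes. In qHSC 2, C6 was at 7076 and Slc40a1 at 12318. The part of other cells in these levels was not tested. Marco, a scavenger receptor of resident cells, was at 1.37 (limma SE 0.73, adjusted p = 0.144) and at 2.41 without qHSC 1 and 4 (SE 0.60, adjusted p = 0.012).

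Of 14 transcription factors that act in Kupffer cells or macrophages, 6 were called higher in hypHSC and 1 lower by limma, with a median log2 fold change of 0.89. Spi1, the general myeloid factor, rose by 5.38 (limma SE 0.68, adjusted p = 7.42e-05). Tfec rose by 4.86 (limma SE 0.85, adjusted p = 0.000694). Nr1h3, a nuclear receptor that Kupffer cell identity depends on, rose by 2.33 (limma SE 0.43, adjusted p = 0.000975), and Spic, which haem induces in macrophages, rose by 3.99 (limma SE 0.82, adjusted p = 0.00199). Id3, which marks Kupffer cells among macrophages but is also expressed in stellate cells, fell by 1.36 (limma SE 0.37, adjusted p = 0.0112), from 39151 to 64373 normalized counts in qHSC to 7594 to 33627 in hypHSC. Without qHSC 1 and 4, Id3 was at -1.31 and no longer passed (limma adjusted p = 0.0563), and 7 factors were called higher. Zeb2 (-0.96, limma adjusted p = 0.00113) stayed under the fold threshold, and Id1 (0.92, limma adjusted p = 0.201) did not pass.

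The 10 signals that neighbouring cells supply to Kupffer cells went the other way, with 7 called lower in hypHSC and 1 higher by limma and a median log2 fold change of -4.67, or -3.79 with Dll4 at its bound. Bmp10 and Gdf2 encode ligands of the bone morphogenetic protein family. Bmp10 was at 392 to 675 normalized counts in qHSC and at 12.1, 0, 2.49, 0 and 0 in hypHSC 1 to 5 (limma adjusted p = 7.49e-06), where the size of a fold depends on the pseudocount. Gdf2 fell by 5.97 (limma SE 0.47, adjusted p = 2.63e-06). Gdf2 ranged from 55591 to 92598 normalized counts in qHSC and from 292 to 2593 in hypHSC, without overlap. Il34, a ligand of the macrophage growth factor receptor Csf1r, fell by 6.01 (limma SE 1.12, adjusted p = 0.0011), and Csf1, the other ligand, fell by 3.54 (limma SE 0.72, adjusted p = 0.00191). In hypHSC 5 Il34 was at 0 and Csf1 at 3.02 normalized counts, so the size of these folds also depends on the pseudocount. Dll4, a Notch ligand, was at 2 reads or fewer in every hypHSC library and at 41.1 to 116 normalized counts in qHSC, at least 16.5-fold lower in hypHSC against a floor of 3 reads per library. Cxcl12 fell by 5.81 (limma SE 0.70, adjusted p = 5.47e-05) and Vcam1, an adhesion molecule, by 1.79 (limma SE 0.42, adjusted p = 0.00475). The exception was Tgfb1, with few reads, at 16.6 to 37.7 normalized counts in hypHSC and 3.41 to 14.6 in qHSC (limma adjusted p = 0.038). Its adjusted p was 0.0921 without qHSC 1 and 4, where 8 of the 10 signals were called lower. The quiescent stellate genes moved with these signals, all 12 of 12 called lower by limma, and the part of stellate cell number in the fall was not tested.

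Macrophage genes of other kinds gave the background against which the members stood. All 20 core macrophage genes were called higher in hypHSC, with and without qHSC 1 and 4, at a median log2 fold change of 4.61, above that of each of the 7 members. Of 16 genes of monocyte-derived and lipid-associated macrophages, 13 were called higher and 1 lower by limma, with a median of 5.94. Gpnmb, at 8.52 to 51.2 normalized counts in qHSC and 43714 to 337161 in hypHSC, had the largest rise (12.36, limma SE 0.62, adjusted p = 1.27e-07). Spp1 rose by 12.19 (limma SE 1.03, adjusted p = 4.37e-06) and Mmp12 by 11.74 (limma SE 0.47, adjusted p = 3.89e-08). In qHSC these 16 genes summed to 24083 to 41528 normalized counts, led by Plac8, the gene called lower, at 22350 to 38305. Other genes of the list were higher in qHSC 1 and 4 than in the other qHSC libraries, such as Lgals3, at 758 and 1971 against 52.8 to 268, and Trem2, at 90.5 and 71.9 against 2.56 to 15.7. The following sums are for lists chosen to represent other cells. The 12 sinusoidal endothelial genes summed to 6033 to 7949 normalized counts in hypHSC and 2620 to 5154 in qHSC. Most of that sum in hypHSC was Fcgr2b, at 4811 to 6085 there and 30.0 to 335 in qHSC. Among qHSC it was highest in qHSC 4, at 335, and next in qHSC 1, at 186, the same order as the core macrophage sum. The part of macrophages in the level of Fcgr2b was not tested. Of the 10 endothelial genes tested, limma called Fcgr2b, Oit3 and Stab2 higher and Clec4g, Egfl7 and Gpr182 lower. The 8 hepatocyte genes summed to 12901 to 105350 normalized counts in hypHSC and 23582 to 82764 in qHSC. Among qHSC the hepatocyte sum was highest in qHSC 1 and next in qHSC 4, and it was above the sum of the 7 members in every qHSC library; its part in the results was not tested. The 8 neutrophil genes summed to 2031 to 8307 in hypHSC and 3.75 to 399.6 in qHSC. T and NK cell genes reached at most 682 and B cell genes at most 381 normalized counts in any library, with Pax5 at 0 in all of them.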

How the data were processed

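RNA was sequenced in 5 hypHSC and 5 qHSC libraries, grouped by their titles. Each deposited value is a signal for 1 gene in 1 library. To make it, the authors mapped reads to mm39 (GRCm39) with STAR, counted them per gene without strand with featureCounts (Subread 1.5.0), and divided the counts by a DESeq2 size factor per library. Whole reads were recovered for 100% of the values (tolerance 0.01 normalized counts). Of 62322 entries, the 25233 with a symbol were used, and the 14630 that reached 10 normalized counts in 5 or more libraries were tested. Values were compared as log2(value + 1) in R 4.3.3 by limma 3.58.1 (trended variance prior). Calls needed a log2 fold change of 1 or more in either direction and a Benjamini-Hochberg adjusted p up to 0.05. In all, limma called 5779 genes, and on the recovered reads DESeq2 1.42.0 called 5861 and edgeR 4.0.16 called 5336. Single genes were also tested with exact two-sided permutation tests (scipy 1.17.1). Fits were tested on simulated data. FPKM used GENCODE exon lengths, found for 91.86% of genes with a symbol. Promoters are from RefSeq. Named genes are the members and, of each list, those called with the 3 largest rises or falls, the 3 highest means or at the floor in a group, not all of which are reported here; Nr1h3, Spic, Zeb2, Id1, Marco, Csf1, Lgals3 and Trem2 were added after their values were seen. The members and lists were chosen with earlier results of these data known. Alternatives changed the pseudocount, filter, scaling, features, test, block or libraries. Nothing shows whether replicates are separate animals, so p-values measure the spread between these preparations.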

Additional observations from a re-analysis of the deposited data

Results flagged for a closer look

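In 26 groups of 5 libraries the highest or lowest library was compared with its nearest neighbour, and 2 groups held a library far from the others by Dixon's criterion, where chance alone gives about 1 in 20. Clec4f was 8014 normalized counts in hypHSC 4, with a gap of 0.782 of the range of hypHSC to the next library. Timd4 was at 0.943 reads per 100 reads of Clec4f in qHSC 2, with a gap of 0.744 of the range of qHSC, and this value rests on 7 reads of Timd4.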

How the results depend on the processing

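Each result was recomputed under 23 alternatives, of which leaving out qHSC 1 and 4 together was added after the data had been seen. Calls for the 7 genes depended on the test and on single libraries, and the cause was not tested. The number called higher, 4 with limma, was 1 with DESeq2, 0 with edgeR and 1 with the hypHSC of 12 diet weeks only. It was 2 to 4 when 1 library was left out, and 2 without qHSC 2, 3 or 5. The number called lower, 0 with limma, was 2 with DESeq2, 2 with edgeR and 1 with equal totals. It was 0 to 1 when 1 library was left out, and 1 without qHSC 2 or qHSC 3. Clec4f reversed with DESeq2 (-0.22, adjusted p = 0.851) and edgeR (-0.24, adjusted p = 0.854), passed without qHSC 1 and 4 (2.89) and ranged from 0.61 to 1.94 when 1 library was left out. Timd4 passed with DESeq2 (-4.79, adjusted p = 7.12e-05) and edgeR (-4.78, adjusted p = 0.0165) and ranged from -4.15 (without qHSC 2, limma adjusted p = 0.0211) to -2.16. Cd163 passed with DESeq2 (-4.14), edgeR (-4.16) and equal totals (-3.06), and ranged from -3.54 (without qHSC 3, limma adjusted p = 0.0185) to -1.83. Vsig4 did not pass with equal totals (2.50), DESeq2 (1.33), edgeR (1.31) or 12 diet weeks (3.22), and ranged from 2.29 to 3.71, not passing without hypHSC 1, 3, 4 or 5 or without qHSC 2, 3 or 5. Cd5l did not pass with DESeq2 (1.70), edgeR (1.69) or 12 diet weeks (3.21), and ranged from 2.71 to 4.07. Folr2 did not pass with DESeq2 (1.57), edgeR (1.54) or 12 diet weeks (3.13), and ranged from 2.47 to 3.76, not passing without qHSC 2, 3 or 5. Clec1b did not pass with edgeR (2.34) and ranged from 2.94 to 4.55. Of the 20 wider Kupffer cell genes, 4 to 10 were called higher when 1 library was left out, the most without qHSC 4, and 11 without qHSC 1 and 4.

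Replicate numbers did not pair the libraries, since deviations of libraries with the same number correlated at 0.01 to 0.13 and 1 of 5 matched its own number best. With the replicate block, Cd163 passed (-2.71, limma adjusted p = 0.0478), which made 1 member called lower. Scaling to equal totals moved the median log2 fold change of all genes from -0.20 to -0.54 and the share of calls that were higher from 45.0% to 32.4%. The members kept their direction under it. Timd4 was at the floor of 3 reads in hypHSC 4 and 5.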

Other observations

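Genes outside the 7 whose levels varied most like theirs from library to library were ranked over the 10 libraries, after each gene was centred on its group mean so that the difference between the groups did not count. The 10 closest included Cd300c2, Lilra5, Rgs1, Fcgr3, Mrc1, Pilrb2, Cd300ld, Cd68 and the merged entry of Ear2, Ear3 and Ear12, with Pearson r from 0.994 down to 0.975 and Spearman rho from 0.879 to 0.988. They were chosen as the highest of 14630 genes, the points share libraries and depth, and the values are a description with no test. When qHSC 4 and qHSC 1, the libraries farthest from the median, were left out, r lay between 0.922 and 0.979. Cd300c2, an activating receptor of myeloid cells, had 779 and 1915 normalized counts in qHSC 1 and 4, 77.5 to 114 in the other qHSC and 16556 to 23773 in hypHSC. Mrc1, the mannose receptor of macrophages and sinusoidal endothelium, had 1164 and 2667 in qHSC 1 and 4, 172 to 228 in the other qHSC and 3535 to 5655 in hypHSC.

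Among the 7 genes themselves the same centred values were closest for Vsig4 and Folr2 (r = 0.990 over 10 libraries) and least close for Timd4 and Cd163 (r = 0.579), the pair that was low in hypHSC. Timd4 was highest among hypHSC in hypHSC 3, at 39.1 normalized counts, and lowest in hypHSC 4, at 2.10, while Cd163 was highest in hypHSC 4, at 54.5.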
